A study of Mus musculus with 6 samples.

Results

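The genes described here make creatine, carry it into cells, phosphorylate it, or, in the case of Asb9, mark a creatine kinase for breakdown. They are Gatm, Gamt, Slc6a8, Ckb, Ckm, Ckmt1, Ckmt2 and Asb9, 8 of the 54532 genes in the table, found by matching Ensembl identifiers to symbols in the GENCODE M21 annotation. Asb9 was selected because its level was lower in the adiponectin-producing kidneys of this same comparison. The other 7 were selected for their place in the pathway, which was itself picked with these values in view. All member values below are therefore descriptions, and nothing is read from the intervals and calls given for members as tests. Of the 8 members, 6 passed the filter on low counts and 2, Ckm and Ckmt2, did not.

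RNA-seq was performed on whole kidneys of male mice on a C57BL/6 background. Control mice carried KsprtTA, a doxycycline-dependent transactivator driven by the kidney-specific cadherin promoter in the epithelium of all tubule segments, proximal tubule through collecting duct, and lacked the adiponectin transgene (the labels name their genotype WT). KSPAPN mice carried KsprtTA together with TRE-adiponectin, so that doxycycline switches on adiponectin in those tubules. Both groups received chow with 600 mg/kg doxycycline for 4 days. There were 3 libraries per group, each made from the pooled kidneys of 3 mice, and the errors below are errors between such pools. How old these mice were is not given in the sources used. The extraction text in the labels speaks of liver although the tissue is labelled kidney.

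Creatine is built in steps. Gatm moves an amidino group from arginine to glycine, which in the kidney takes place mainly in proximal tubule mitochondria, and Gamt then methylates the product, guanidinoacetate, a step best known from the liver. Slc6a8 takes up finished creatine across the plasma membrane. Creatine kinases pass phosphate between ATP and creatine: Ckb (brain type) and Ckm (muscle type) in the cytosol, Ckmt1 (the widely expressed form) and Ckmt2 (the form of striated muscle) between the mitochondrial membranes. Asb9 is an ankyrin repeat protein with a SOCS box, a substrate receptor that brings creatine kinase to a cullin-5 ubiquitin ligase.

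The 4 kinase genes are close relatives, and reads are told apart only by the bases that differ. The coding stretch around the catalytic cysteine is shown for each gene because it is a strongly conserved part of the enzyme and still separates all 4 genes. Capitals mark the bases that are not the same in all 4 genes, 26 of 63 positions (GRCm38, coding strand).
Ckb, chr12:111669913-111669975 (minus strand): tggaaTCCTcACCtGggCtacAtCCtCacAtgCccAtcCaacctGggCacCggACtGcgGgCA
Ckm, chr7:19420146-19420208 (plus strand): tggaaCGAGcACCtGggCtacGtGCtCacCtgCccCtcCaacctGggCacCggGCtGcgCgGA
Ckmt1, chr2:121362714-121362776 (plus strand): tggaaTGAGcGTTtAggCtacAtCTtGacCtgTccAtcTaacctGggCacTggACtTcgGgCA
Ckmt2, chr13:91858244-91858306 (minus strand): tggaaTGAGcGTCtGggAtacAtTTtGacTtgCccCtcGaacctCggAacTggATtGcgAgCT
Over the aligned coding sequence, Ckb matched Ckm at 77.7% of bases and Ckmt1 matched Ckmt2 at 77.6%, while Ckb matched Ckmt1 at 73.9%. Of the 100-base stretches of the Ckb transcript, 151 of 1373 occurred unchanged in Gm12892, which had 2 counts in 1 Control library and 0 in the other 5 libraries. For Ckm, 165 of 2643 stretches occurred in A930016O22Rik, an antisense gene that overlaps Ckm exons and had 0 to 13 counts per library. Only the longest protein-coding transcript of each member was compared, which for Ckmt1 has 1620 bases against 2496 exonic bases in the gene. Within these transcripts, no 100-base stretch of Ckmt1 or Ckmt2 occurred in a transcript of another annotated gene.

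The sequence before the start of Asb9 and of Ckb is shown because the first gene is the one selected on its level and the second encodes an enzyme that Asb9 protein binds. Each run is the 250 bases upstream of the RefSeq start (GRCm38.p6), and capitals mark matches on either strand to 5 short motifs: the TATA box (TATAAA), the CCAAT box, the GC box (GGGCGG), the letters AGAACA bound by steroid receptors and the letters AGGTCA bound by other nuclear receptors.
Asb9, chrX:164497653-164497902 (plus strand): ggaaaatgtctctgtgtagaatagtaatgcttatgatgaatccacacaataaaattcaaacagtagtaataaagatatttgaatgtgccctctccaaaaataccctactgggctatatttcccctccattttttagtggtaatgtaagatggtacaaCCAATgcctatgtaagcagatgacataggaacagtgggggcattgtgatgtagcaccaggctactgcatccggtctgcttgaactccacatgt
Ckb, chr12:111672339-111672588 (minus strand): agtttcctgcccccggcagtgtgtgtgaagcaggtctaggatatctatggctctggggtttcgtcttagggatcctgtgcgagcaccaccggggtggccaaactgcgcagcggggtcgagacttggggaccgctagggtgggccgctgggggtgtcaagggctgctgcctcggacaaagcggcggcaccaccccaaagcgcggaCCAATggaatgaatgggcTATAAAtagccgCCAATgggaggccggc
The Asb9 window held a single match, CCAAT at position -93, a motif found in 33.8% of the 32851 windows of the same length. The Ckb window held TATAAA at position -28, found in 12.4% of windows, and CCAAT at -46 and -16. The Asb9 window was 40.0% G or C with 1 CpG, the Ckb window was 62.8% G or C with 16 CpG, and the median over all windows was 52.4%. The RefSeq start of Asb9 lies 8424 bases before the start of the gene in GENCODE M21. A match is a string of letters and was not tested as a binding site.

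The libraries held between 17183358 and 20871173 counts. Adipoq, the gene of the transgene, had between 0 and 2 counts in Control libraries and between 17483 and 26811 in KSPAPN libraries, so all 6 libraries went with their labels. Of the 16017 genes that passed the low-count filter, 2.65% were called at an adjusted p under 0.05 (edgeR quasi-likelihood test with Benjamini-Hochberg adjustment), 2.25% being lower in KSPAPN. The 3 KSPAPN values lay below the 3 Control values on the FPKM scale for 13.5% of these genes. Of the 8 members, 1 (Asb9) was called, and since Asb9 was selected on this contrast nothing is read from that count.

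Gatm (ENSMUSG00000027199, chr2:122594467-122611303, minus strand), the first enzyme of synthesis, was by far the most abundant member, the 218th protein-coding gene by mean FPKM in Control kidneys and the 190th in KSPAPN kidneys. FPKM is the count scaled by gene length and library size, so a comparison between genes depends on the length used. The deposited values came without these lengths. Ckb has 2895 exonic bases in GENCODE M21 but 1472 in its longest protein-coding transcript, whereas both lengths are 1139 for Asb9. Orders, shares and ratios between genes below are those of FPKM as deposited. The FPKM of Gatm was 182, 175 and 172 in Control libraries 1 to 3 and 107, 151 and 222 in KSPAPN libraries 1 to 3. The means were 176 ± 5.01 against 160 ± 57.9 (SD, n = 3 each). The 3 Control libraries lay close together, whereas KSPAPN library 1 was the lowest of all 6 and KSPAPN library 3 the highest, so the groups overlapped. The log2 fold change, KSPAPN over Control, was -0.14 with a standard error of 0.20 and a 95% interval from -0.59 to 0.31. Without KSPAPN replicate 1 it was 0.098, so 1 library set its sign.

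Gamt (ENSMUSG00000020150, chr10:80258151-80261012, minus strand), which completes creatine by methylation, was expressed at a much lower level. Its FPKM was 15.8, 14.1 and 12.4 in the Control libraries and 11.4, 7.01 and 10.9 in the KSPAPN libraries, a mean of 14.1 ± 1.68 against 9.77 ± 2.41. All 3 KSPAPN libraries lay below the lowest Control library, with replicate 2 the furthest below. The log2 fold change was -0.52 (standard error 0.19, 95% interval -0.94 to -0.093). The ratio of Gatm to Gamt FPKM was 12.6 ± 1.18 in Control and 17.1 ± 6.73 in KSPAPN libraries, where it ranged from 9.38 to 21.6 and overlapped the Control values.

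Slc6a8 (ENSMUSG00000019558, chrX:73673150-73682502, plus strand), the creatine carrier, had an FPKM of 52.4, 42.4 and 48.2 in the Control libraries and 39.0, 37.8 and 39.4 in the KSPAPN libraries. The KSPAPN libraries agreed within 2 FPKM of each other and all lay below the lowest Control library, at 38.7 ± 0.850 against 47.6 ± 5.04. The log2 fold change was -0.29 (standard error 0.098, 95% interval -0.51 to -0.074), the narrowest interval among the members.

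**Figure D1:**
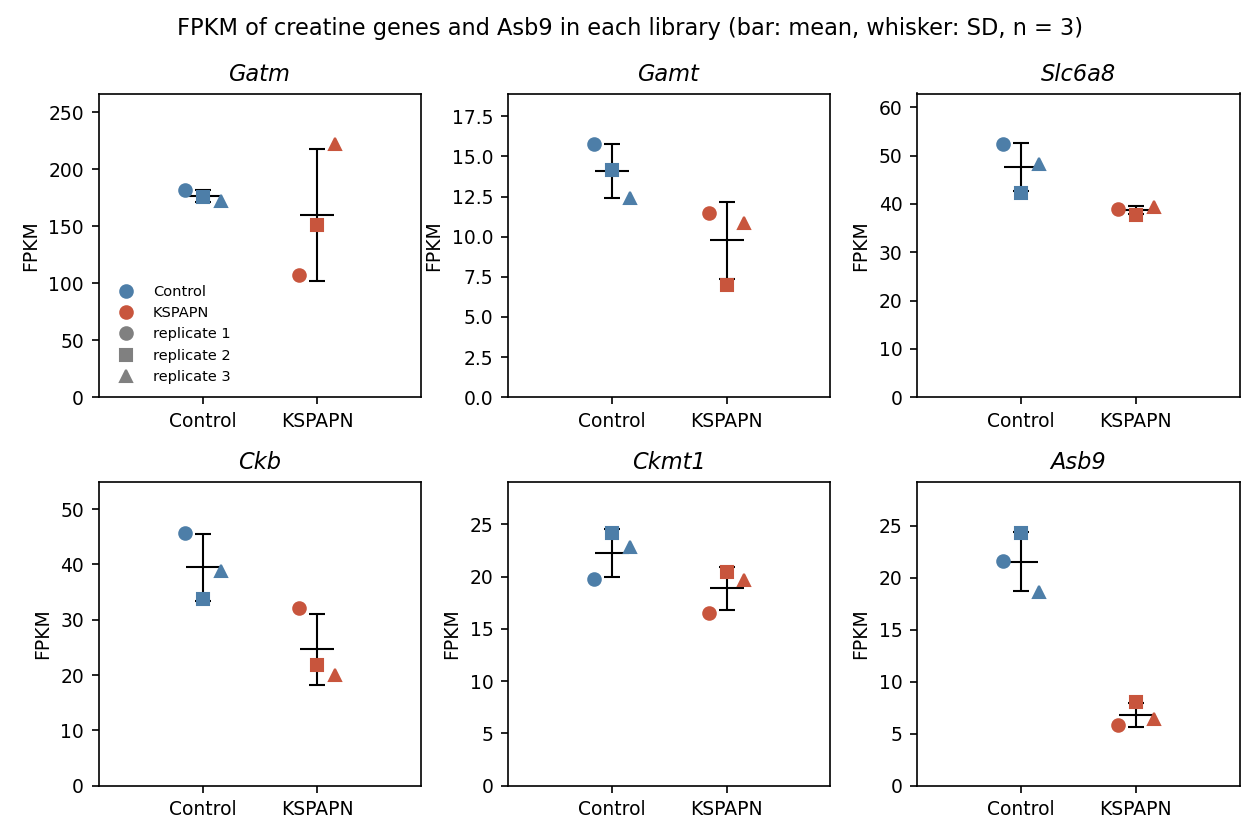
FPKM of the 6 members that passed the low-count filter (vertical axes, each from 0) in the 3 Control and 3 KSPAPN libraries; points are libraries, horizontal bars are group means and whiskers are SD. The groups do not overlap for Gamt, Slc6a8, Ckb and Asb9, and they overlap for Gatm, where KSPAPN runs from 107 to 222, and for Ckmt1.

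Ckb (ENSMUSG00000001270, chr12:111669361-111672338, minus strand), a cytosolic kinase to which Asb9 protein binds, was the kinase with the highest mean FPKM. Its FPKM was 45.7, 33.7 and 38.9 in the Control libraries and 32.0, 21.8 and 20.1 in the KSPAPN libraries, a mean of 39.4 ± 6.03 against 24.6 ± 6.47. The highest KSPAPN value, 32.0, lay just under the lowest Control value, 33.7. The log2 fold change was -0.67 (standard error 0.18, 95% interval -1.06 to -0.28), the second most negative among the members. Without KSPAPN replicate 1, the library nearest to the Control range, it was -0.90.

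Ckmt1 (ENSMUSG00000000308, chr2:121357714-121363737, plus strand), the mitochondrial kinase, had an FPKM of 19.7, 24.2 and 22.9 in the Control libraries and 16.5, 20.5 and 19.7 in the KSPAPN libraries. The groups overlapped, 22.3 ± 2.29 against 18.9 ± 2.07, and the log2 fold change of -0.23 had a 95% interval from -0.48 to 0.012 (standard error 0.11). An exon of Strc lies opposite Ckmt1 on the other strand, but Strc had at most 2 counts in any library, against 913 to 1048 for Ckmt1.

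The muscle kinases were at the limit of detection. Ckm (ENSMUSG00000030399, chr7:19404776-19422841, plus strand) had 2 counts in KSPAPN library 1 and 0 in the other 5 libraries. Ckmt2 (ENSMUSG00000021622, chr13:91853387-91876885, minus strand) had 1 count in 4 libraries and 0 in the other 2. A count of 0 allows up to 3 counts, or 0.144 to 0.175 CPM (counts scaled to the library total) at these depths (counting error only), and no fold change was computed for either gene. Markers of skeletal muscle were also low. Their sum over the list was 3.51 to 4.87 FPKM in Control and 3.45 to 3.75 FPKM in KSPAPN libraries. Within the list, Myh1 had 0 counts in all 6 libraries, whereas Pygm, with the highest mean FPKM, had 93 to 201 counts per library.

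Kinase RNA in these kidneys was therefore Ckb and Ckmt1. Their summed FPKM, with the traces of the other 2 kinases, was 65.5, 57.9 and 61.8 in the Control libraries and 48.6, 42.3 and 39.8 in the KSPAPN libraries, or 61.7 ± 3.79 against 43.5 ± 4.55, without overlap. The cytosolic form supplied 63.7% ± 5.84 of that sum in Control and 56.0% ± 8.63 in KSPAPN libraries. The share overlapped between groups, since KSPAPN library 1, at 65.9%, lay inside the Control range of 58.2% to 69.8%.

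**Figure D2:**
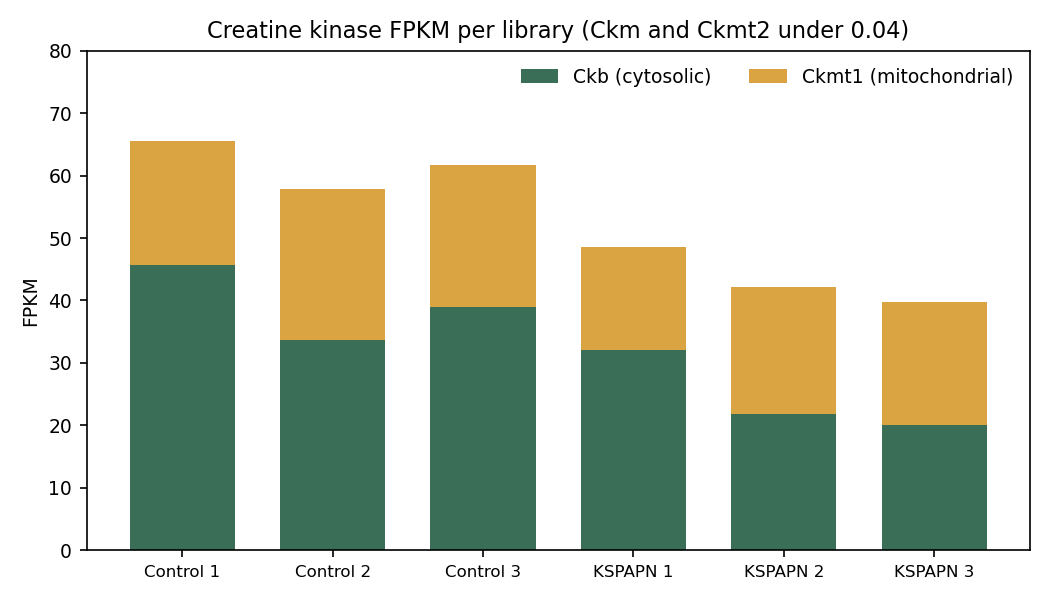
Stacked FPKM of Ckb and Ckmt1 (vertical axis, from 0) in each of the 6 libraries. The summed level is 57.9 to 65.5 in the Control libraries and 39.8 to 48.6 in the KSPAPN libraries, while the Ckmt1 segment alone overlaps between groups.

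Asb9 (ENSMUSG00000031384, chrX:164506327-164539752, plus strand) was the member selected on its difference. Its FPKM was 21.7, 24.3 and 18.7 in the Control libraries and 5.88, 8.07 and 6.44 in the KSPAPN libraries, from 457, 481 and 374 counts against 156, 168 and 152. The highest KSPAPN library, at 8.07, and the lowest Control library, at 18.7, left a gap wider than the spread within either group (21.6 ± 2.83 against 6.80 ± 1.14). The log2 fold change was -1.66 (standard error 0.16, 95% interval -2.03 to -1.30), so that the level was 3.17-fold lower in KSPAPN. Across the 14 other settings and left-out libraries the log2 fold change stayed between -1.80 and -1.54. The ratio of Asb9 to Ckb FPKM was 0.559 ± 0.142 in Control and 0.292 ± 0.0969 in KSPAPN libraries.

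All 6 members with a fitted value were lower in KSPAPN, with a median log2 fold change of -0.41 against 0.01 over all genes tested. In 4 of the 6 (Gamt, Slc6a8, Ckb and Asb9) the groups did not overlap, beside the 13.5% of all tested genes given above. Because the pathway was picked with these values in view, the count is descriptive. RNA per kidney was measured in bulk, and fewer cells of a type cannot be told apart from less RNA per cell.

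By mean FPKM in Control kidneys the order was Gatm, Slc6a8, Ckb, Ckmt1, Asb9 and Gamt. The neighbours Slc6a8 and Ckb overlapped there, as did Ckmt1 and Asb9. In KSPAPN kidneys Asb9 moved to the bottom of the order, below Gamt, although the 2 genes overlapped (5.88 to 8.07 against 7.01 to 11.4 FPKM), and Ckb overlapped Ckmt1. Among protein-coding genes Asb9 stood at place 2201 in Control and 5733 in KSPAPN, whereas Slc6a8 stood at 998 and 1114.

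Asb9 was the most abundant Asb gene in Control kidneys and the third in KSPAPN kidneys. The Asb proteins share ankyrin repeats and a SOCS box and differ in the substrates they bind. Asb13 had 15.6 ± 0.493 FPKM in Control and 13.9 ± 0.708 in KSPAPN, and Asb8 had 12.1 ± 0.652 and 12.4 ± 0.541. The ratio of Asb9 to Asb13 FPKM was 1.42, 1.51 and 1.21 in the Control libraries and 0.442, 0.550 and 0.471 in the KSPAPN libraries, so the order of these genes was turned around in every library. Of 17 other Asb genes, 11 were tested, 5 higher and 6 lower, and 0 were called by edgeR or DESeq2 (1, Asb11, was lower at an unadjusted p under 0.05 and was called by edgeR without the low-count filter). Their median log2 fold change was -0.04, with Asb8 at 0.04 (adjusted p = 0.880) and Asb13 at -0.17 (adjusted p = 0.323).

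**Figure D3:**
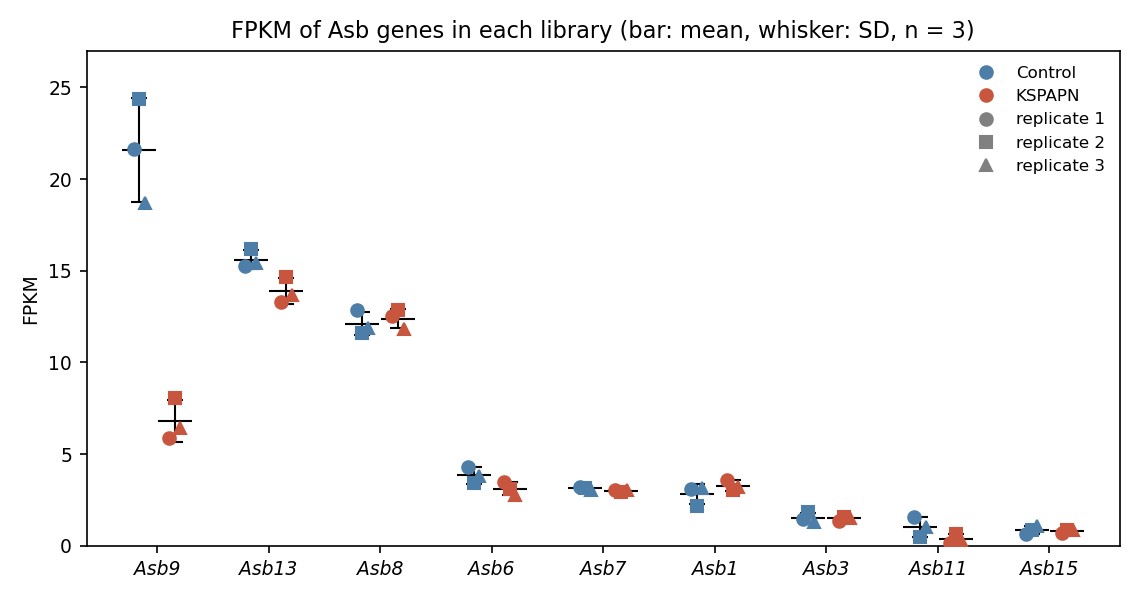
FPKM of Asb9 and the 8 next most abundant Asb genes (vertical axis, from 0) in each library; points are libraries, bars are group means and whiskers are SD. Asb9 runs from 18.7 to 24.3 in Control, above Asb13 and Asb8, and from 5.88 to 8.07 in KSPAPN, below both.

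Asb11 is also the nearest protein-coding gene to Asb9 on the X chromosome, ending 47157 bases to its left on the same strand. It had 83, 24 and 52 counts in the Control libraries and 8, 34 and 19 in the KSPAPN libraries, which overlapped, and its log2 fold change was -1.53 (standard error 0.57, edgeR adjusted p = 0.181). On the right, the nearest protein-coding gene was Mospd2, 396417 bases away, at 0.33 on the log2 scale (standard error 0.12, edgeR adjusted p = 0.176). The nearest annotated genes of any kind, the pseudogenes Gm15211 and Gm15216, had 0 counts in all 6 libraries.

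The genes whose pattern over the 6 libraries was most like that of Asb9 were Selenbp2, Car9, Fam107a, Arhgef39 and Nat8f7. Likeness was the Euclidean distance between log2 CPM values centred on their mean, computed for 11161 protein-coding genes averaging 1 FPKM or more, and a smaller distance means a closer pattern. The distances were 0.407, 0.421, 0.471, 0.477 and 0.525 in that order. The log2 fold changes of these 5 genes lay between -1.62 and -1.31, which the choice by likeness fixes. The other members lay further away, Ckb nearest at 1.49 and Gatm furthest at 1.95. The genes share only the 6 libraries as points, and no p was computed.

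Enzymes that make or use the arginine, glycine and methyl groups needed for creatine are not members, and their genes were tested in the same fit, although this list, like the other related lists, was drawn up with earlier results of these data known. Of 24 such genes, 23 were tested, 4 were higher and 19 lower, and 7 were called by edgeR, all lower, with a median log2 fold change of -0.21. Gldc, of the glycine cleavage system, went the other way, with 30.7 ± 3.62 FPKM in Control and 40.5 ± 5.44 in KSPAPN and a log2 fold change of 0.41 (edgeR adjusted p = 0.117), and was called higher by DESeq2, with the replicate block and without the low-count filter. Ass1 and Asl, which make arginine from citrulline and aspartate in the proximal tubule, fell from 1024 ± 99.0 to 662 ± 113 FPKM and from 35.5 ± 4.37 to 23.5 ± 3.53 FPKM, log2 fold changes of -0.62 (standard error 0.14, edgeR adjusted p = 0.0423) and -0.59 (standard error 0.13, edgeR adjusted p = 0.0388). Shmt2, which forms glycine from serine in mitochondria, fell by 0.56 on the log2 scale, from 96.9 ± 9.93 to 65.3 ± 6.42 FPKM (edgeR adjusted p = 0.0274). Sardh, which forms glycine from sarcosine, also fell by 0.56, from 78.7 ± 11.2 to 53.1 ± 2.04 FPKM (edgeR adjusted p = 0.0306). Among the genes of methyl group turnover, Ahcy, which clears the by-product left by methyltransferases such as Gamt, fell by 0.49 from 140 ± 12.2 to 99.3 ± 3.83 FPKM (edgeR adjusted p = 0.0269). Bhmt2, which turns homocysteine back into methionine, fell by 0.67 (edgeR adjusted p = 0.0225), and Cbs, which removes homocysteine, fell by 0.50 (edgeR adjusted p = 0.0425). Bhmt was scarce, with 0.768 ± 0.377 FPKM in Control and 0.192 ± 0.103 in KSPAPN. It had the lowest log2 fold change of the list, -2.01 (standard error 0.49, edgeR adjusted p = 0.0611). Bhmt was called lower by DESeq2, without the low-count filter and without Control replicate 3.

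Carriers of creatine or of creatinine, its breakdown product, were all lower in KSPAPN, 8 of 8, with 2 called and a median log2 fold change of -0.36. Slc22a7, an organic anion carrier that also moves creatinine, had 124 ± 14.9 FPKM in Control and fell by 1.68 on the log2 scale to 38.7 ± 16.8 FPKM in KSPAPN (standard error 0.27, edgeR adjusted p = 0.0136). Slc22a2, the basolateral cation carrier for creatinine, fell from 142 ± 11.2 to 99.2 ± 7.95 FPKM (log2 fold change -0.51, edgeR adjusted p = 0.0259). Slc47a1, the luminal exporter, had a log2 fold change of -0.43 (edgeR adjusted p = 0.178). Slc16a12, which carries creatine, was at -0.12 with overlapping groups (standard error 0.12, edgeR adjusted p = 0.654). Slc16a9 was at -0.37 (edgeR adjusted p = 0.0785) and was called by DESeq2.

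The remaining related groups gave 0 calls by edgeR. Of 5 relatives of Slc6a8 that carry taurine, betaine or GABA, 3 were tested, 2 higher and 1 lower, with Slc6a6 at 0.15 (adjusted p = 0.420) and Slc6a13 at -0.45 (adjusted p = 0.0744, called by DESeq2 and lower at an unadjusted p under 0.05). Of 8 components of the cullin-5 ligase that Asb9 joins, 4 were higher and 4 lower, none at an unadjusted p under 0.05 and 0 by DESeq2, with the most abundant, Elob and Nedd8, at -0.27 (adjusted p = 0.280) and -0.07 (adjusted p = 0.712). Of 18 adenylate kinase, nucleoside diphosphate kinase and AMP deaminase genes, which also pass on phosphate or AMP, 14 were tested, 6 higher and 8 lower, with 2 higher at an unadjusted p under 0.05 and 0 by DESeq2, and Ak4 and Ak3 both at -0.13 (adjusted p = 0.650 and 0.624). Of 5 channel and carrier genes of the mitochondrial membranes that work beside the mitochondrial kinase, 1 was higher and 4 lower, none at an unadjusted p under 0.05 and 0 by DESeq2, with Slc25a5 at -0.10 (adjusted p = 0.675) and Vdac1 at -0.18 (adjusted p = 0.345).

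**Figure D4:**
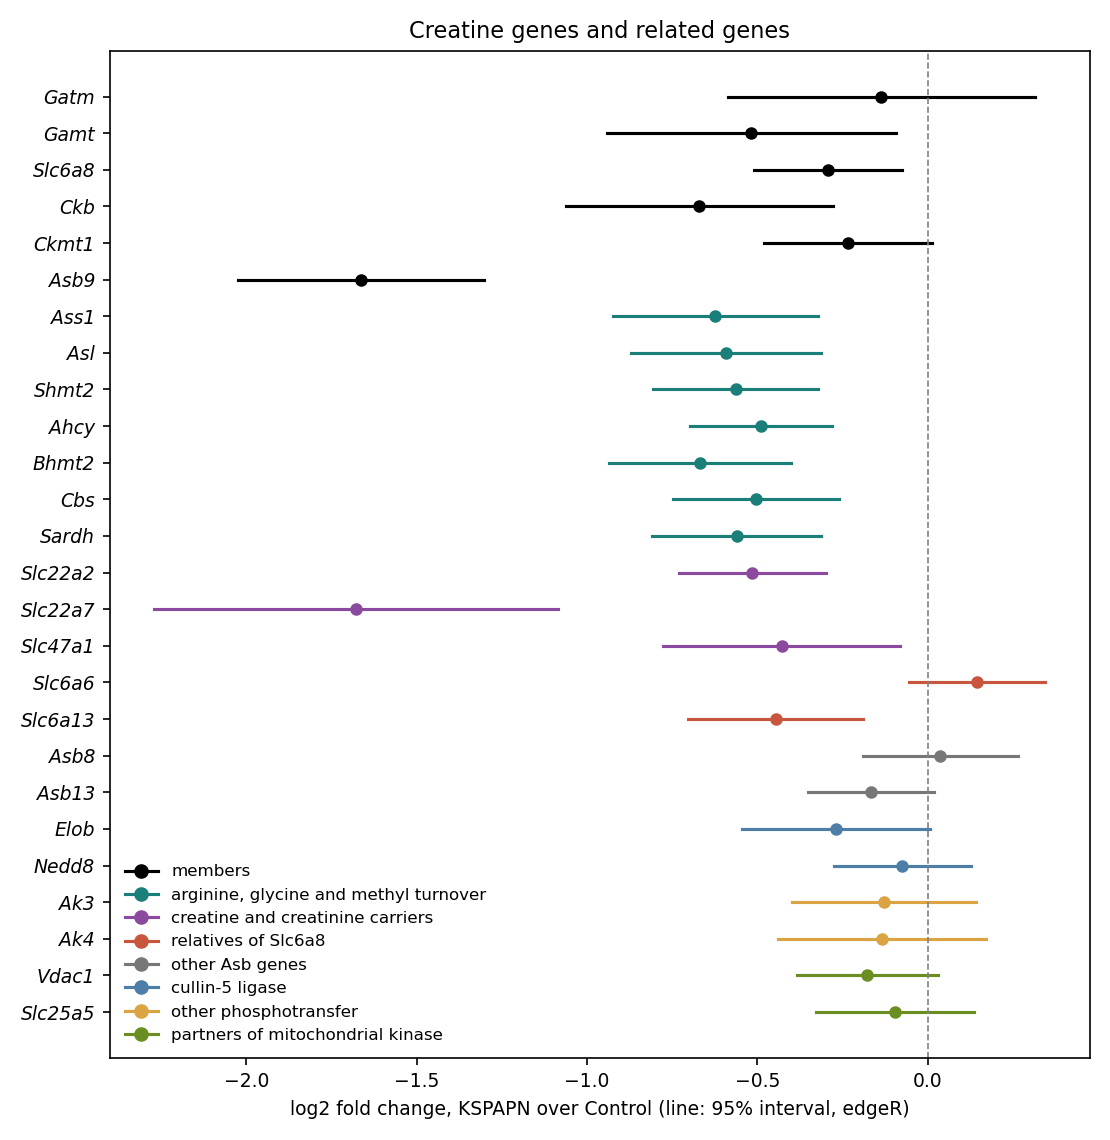
Log2 fold change, KSPAPN over Control (horizontal axis), of the 6 members with a fitted value and of related genes named in the text, with points as edgeR estimates and lines as 95% intervals; colours mark the gene groups. Gldc, Bhmt, Slc16a12, Slc16a9 and Asb11 are not drawn. Of the genes drawn, Asb9 at -1.66 and Slc22a7 at -1.68 stand furthest to the left, and the intervals of Gatm, Ckmt1, Elob and Asb8 are among those that cross 0.

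Over the 7 related groups, 9 of 72 tested genes were called, all lower, beside 2.65% of all genes. That count changed when single libraries were left out, with fewer libraries in each fit. Without Control replicate 1 it was 0, and without Control replicate 2 or KSPAPN replicate 3 it was 1 (Slc22a7). Calls over all genes fell in the same fits, from 424 to 39, 125 and 65 in that order.

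Lists of markers of the cell types a kidney sample could hold were read beside these genes. Of 10 proximal tubule markers, 8 were lower and 3 were called lower (Slc22a6, Slc7a13 and Miox), with a median log2 fold change of -0.28 and a summed FPKM of 2994 to 3610 in Control against 2441 to 2620 in KSPAPN libraries. All 11 genes known to be higher in male than in female mouse kidney were lower, 4 of them called, with a median log2 fold change of -0.52. Their sums overlapped, at 22885 to 34624 FPKM in Control against 16168 to 27056 in KSPAPN libraries. Slc7a13, called here, is also among the proximal tubule markers. All 6 podocyte markers were higher, 0 called by edgeR or DESeq2 and 1 at an unadjusted p under 0.05, with sums of 39.6 to 60.6 against 56.6 to 78.2 FPKM. Sums of thick ascending limb markers were 968 to 1078 against 959 to 1226 FPKM, with 3 markers higher and 3 lower, Slc12a1 being called higher by both tools and Cldn10 lower by DESeq2 only. Those of distal convoluted and connecting tubule markers were 1238 to 1539 against 971 to 1564, and those of collecting duct markers 500 to 608 against 443 to 756. Of 10 collecting duct markers, 9 were tested, 5 higher and 4 lower, with 0 called by edgeR. Of these, 3 were lower at an unadjusted p under 0.05, and Slc4a1, at -0.71, was called lower by DESeq2. Smooth muscle markers summed to 71.4 to 93.6 against 77.6 to 88.6 FPKM, and cardiac markers to 1.07 to 3.16 against 0.838 to 2.28. Sums of hepatocyte markers were 14.8 to 24.0 against 11.5 to 25.5 FPKM. Those of adipocyte markers other than Adipoq were 9.15 to 9.41 against up to 13.8 FPKM, without overlap. Most of the adipocyte sum was Fabp4, with 8.02 ± 0.385 FPKM in Control and 10.1 ± 1.93 in KSPAPN. On the CPM scale the groups overlapped for Fabp4. Of the 6 adipocyte markers, 3 were tested, 2 higher and 1 lower, with 0 called by edgeR or DESeq2. The part of what any of these lists marks in the levels of Asb9 and the creatine genes was not tested.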

How the data were processed

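Whole-kidney RNA of 3 Control and 3 KSPAPN pools of mice was sequenced, and the authors deposited a table of raw read counts and FPKM values per gene and library. STAR 2.5, TopHat, HTSeq 0.6.1, DESeq2 and edgeR are named in the submitters' processing notes, without roles. The genome build, annotation and strand setting were not given in the sources used here, so reads from genes that overlap on opposite strands may not be separated. Coordinates are those of GENCODE M21 (GRCm38), to which 54495 of 54532 identifiers matched. Upstream sequences came from RefSeq (GRCm38.p6), and the table used held 7 of the 8 members, all but Slc6a8.

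Counts were tested with edgeR 4.0.16 in R 4.3.3 (TMM factors, quasi-likelihood fit, two-sided, no covariates). Genes were kept by a minimum count of 10 and a minimum total of 15, with Benjamini-Hochberg adjustment over 16017 genes and a threshold of 0.05. Intervals are 95%. Alternatives were DESeq2 1.42.0, RLE factors, total counts, no filter, limma 3.58.1 on log2(FPKM + 1, 0.1 or 0.01), the replicate number as a block and each library left out.

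Named genes were all 8 members, every called gene and the 2 with the highest mean FPKM of each related list, the 5 genes most like Asb9 and the nearest genes beside it. Gm12892, A930016O22Rik, Strc, Adipoq, Gldc, Bhmt, Slc16a12, Slc16a9 and single marker genes were named because a result touches them, after their values were seen. The values of 1 gene that this rule names are not reported here. The members and all lists were chosen with earlier results of these data known.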

Additional observations from a re-analysis of the deposited data

How the results depend on the processing

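Of the 8 members, 1 was called with edgeR and TMM factors, 2 (Asb9 and Ckb) with DESeq2, 3 (with Gamt) without the low-count filter, 1 with total counts, RLE factors or the limma fits on FPKM, and 1 to 2 when a library was left out, where Ckb joined without KSPAPN replicate 1. Asb9 was called in each of these fits, from which nothing is read, since it was selected on this same contrast. Of the related genes, 9 were called with edgeR and TMM factors, 14 with DESeq2 and 17 without the filter, 1 of them (Gldc) higher in both, 5 with total counts, 0 with limma on FPKM at each of the 3 pseudocounts, and 0 to 10 when a library was left out. Over all genes, 424 were called with edgeR and TMM factors, 937 with DESeq2, 1339 without the filter, 266 with total counts, 102 to 128 with limma on FPKM and 39 to 733 when a library was left out. The edgeR fits of all 6 libraries with the filter and the limma fits covered 16017 genes. The fit without the filter covered 29418. No share is given for DESeq2 or the fits with a library left out, and nothing is read from the member counts. The cause of the differences between fits was not tested. Gatm was the only member whose sign turned under any of these alternatives, with a log2 fold change from -0.44 to 0.0982 over the left-out libraries. With the replicate number as a block (replicate block), 2 members (Asb9 and Ckb), 13 related genes (Gldc higher, the other 12 lower) and 929 genes in all were called. The numbers were not taken as a pairing: deviations of same-numbered libraries correlated at 0.0514, 0.137 and 0.167 over genes, not all above 0.1, although each library correlated best with its own number. With 3 pools a group, intervals of about 0.2 to 0.5 on either side of a member's log2 fold change set what could be seen.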
